A study of Mus musculus with 6 samples.

Results

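The precursor genes of 10 cortical neuropeptides (Npy, Sst, Vip, Cck, Tac1, Penk, Pdyn, Crh, Cort and Adcyap1) were followed in mouse cortical neuron cultures that had received α-synuclein fibrils. The members were the rows of the deposited count table with these symbols. All 10 were among its 24411 genes, and all 10 were among the 13919 genes with enough counts to be tested. Cells came from the cortex of mouse embryos at day 18 and were grown as primary neuron cultures, which also hold glia. The PFF group received preformed fibrils of mouse α-synuclein, protein aggregates assembled outside the cell, at 3.45 µM on day 10 in vitro. The PBS group received phosphate-buffered saline. RNA for 3 PFF and 3 PBS libraries was collected at day 18 in vitro, 8 days later. The labels give no strain or genotype and do not say whether the 3 libraries of a group came from separate cultures. The p-values therefore measure the spread between these libraries, which may be technical.

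Neuropeptides are cut from larger precursor proteins inside dense-core vesicles, released on strong firing, and read by G-protein-coupled receptors on nearby cells. In the cortex, Npy, Sst, Vip, Cort, Crh and Tac1 mark classes of GABA-releasing interneurons. Cck, Adcyap1 and Penk are also made by other cells, Cck and Adcyap1 widely by excitatory neurons. Transcription of several precursor genes, with Sst as the textbook case, is driven through the cAMP response element (CRE), a short promoter motif bound by the factor CREB. A gene count from a whole culture cannot tell fewer cells of a type from less RNA per cell.

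Promoter sequence from RefSeq (GRCm38.p6, the same assembly as mm10) was matched for 8 members, Npy, Sst, Vip, Cck, Tac1, Pdyn, Cort and Adcyap1. Penk and Crh had no entry. The 250 bases before each start were searched on both strands for the full CRE, TGACGTCA, for the shorter core TGACGTC that it contains, and for the shorter TGACG that both contain. The core was present for 3 of the 8 members, Sst, Vip and Adcyap1, and for 3.16% of all 27025 genes in the promoter table. The full CRE was present for Sst alone among the 8, and for 1.77% of all genes. TGACG was present for 6 of the 8 and for 19.8% of all genes. The 30 bases around the core of each gene are shown because they set Sst and Vip, which were lower in PFF, beside Adcyap1, which was not called. They are read 5′ to 3′ on the strand of the gene, with the CRE or its core in capitals.
Sst, chr16:23890874-23890903, minus strand: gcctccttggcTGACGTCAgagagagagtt
Vip, chr10:5639128-5639157, plus strand: gatcactactgTGACGTCtttcggggagcc
Adcyap1, chr17:93198915-93198944, plus strand: gactaggatgcTGACGTCttttactgatac
The match begins 48 bases before the RefSeq start in Sst, 79 in Vip and 91 in Adcyap1. Adcyap1 has another RefSeq start farther downstream, from which the same match begins 242 bases upstream. GENCODE vM21 places the start of Sst 114 bases farther upstream than RefSeq does, so by that annotation the Sst match lies inside the transcript. The 250 bases before the start of Npy, whose transcript was also lower in PFF, held neither the core nor TGACG. They and the same window of Vip are given in full, again with the core in capitals.
Npy, chr6:49822460-49822709, plus strand: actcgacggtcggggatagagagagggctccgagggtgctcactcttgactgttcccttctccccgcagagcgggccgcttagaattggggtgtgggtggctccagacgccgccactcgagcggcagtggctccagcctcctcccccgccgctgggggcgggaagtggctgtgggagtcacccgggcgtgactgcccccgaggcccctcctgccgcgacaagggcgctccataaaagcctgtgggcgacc
Vip, chr10:5638968-5639217, plus strand: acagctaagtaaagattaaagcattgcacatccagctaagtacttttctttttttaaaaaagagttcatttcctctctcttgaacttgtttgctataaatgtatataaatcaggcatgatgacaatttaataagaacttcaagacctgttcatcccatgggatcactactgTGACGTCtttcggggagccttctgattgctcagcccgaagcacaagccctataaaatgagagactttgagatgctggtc
A match is a description of these letters and not evidence of binding.

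The libraries held 10036469 to 10230592 estimated counts in PFF and 9224974 to 10742383 in PBS. Replicate 3 of both groups stood apart from replicates 1 and 2 on the second principal component, which held 18.3% of the variance. Neuron markers were abundant, with 8 pan-neuronal genes summing to 4542 to 4980 CPM (counts per 1000000 counts of the library, TMM-normalised) in PFF and 4414 to 4622 CPM in PBS. Glial genes were present in both groups. The 10 astrocyte markers summed to 3574 to 4565 CPM in PFF and 3686 to 4807 CPM in PBS. Without Gfap, the most abundant of them, the sums were 1992 to 2253 CPM in PFF and 2260 to 2979 CPM in PBS, without overlap. Of the astrocyte markers 3 fell. The 14 oligodendrocyte lineage markers, of which 5 rose and 8 fell, summed to 1141 to 1484 CPM in PFF and 1109 to 1361 CPM in PBS. The 16 microglia markers summed to 548.5 to 675.4 CPM in PFF and 171.1 to 284.9 CPM in PBS. Of 15 tested microglia markers 14 rose. The 12 endothelial, mural and fibroblast markers were low, at 44.45 to 76.31 CPM in PFF and 67.77 to 89.41 CPM in PBS, and the endothelial gene Cldn5 was at 0 counts in all 6 libraries. Of 10 tested genes of that list 1 fell and 0 rose. Over all tested genes 3.98% rose and 2.60% fell. The part of these marker differences in the results below was not tested.

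Transcripts of 3 interneuron peptides, Npy, Sst and Vip, were lower in PFF, and no member was called higher. With edgeR's quasi-likelihood test at an adjusted p under 0.05, 3 of the 10 members fell and 0 rose, where 6.58% of all tested genes were called, 2.60% lower and 3.98% higher. At an unadjusted p under 0.05, 6 members passed, beside 21.2% of all tested genes. DESeq2 called 2 members and limma 3, beside 824 and 903 of all 13919 genes. Over the members the median log2 fold change was −0.33, beside −6e-04 for all tested genes. Libraries of the groups did not overlap for 4 members lower in PFF and 2 higher, beside 11.6% and 13.4% of all genes (25.0% in either direction).

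**Figure D1:**
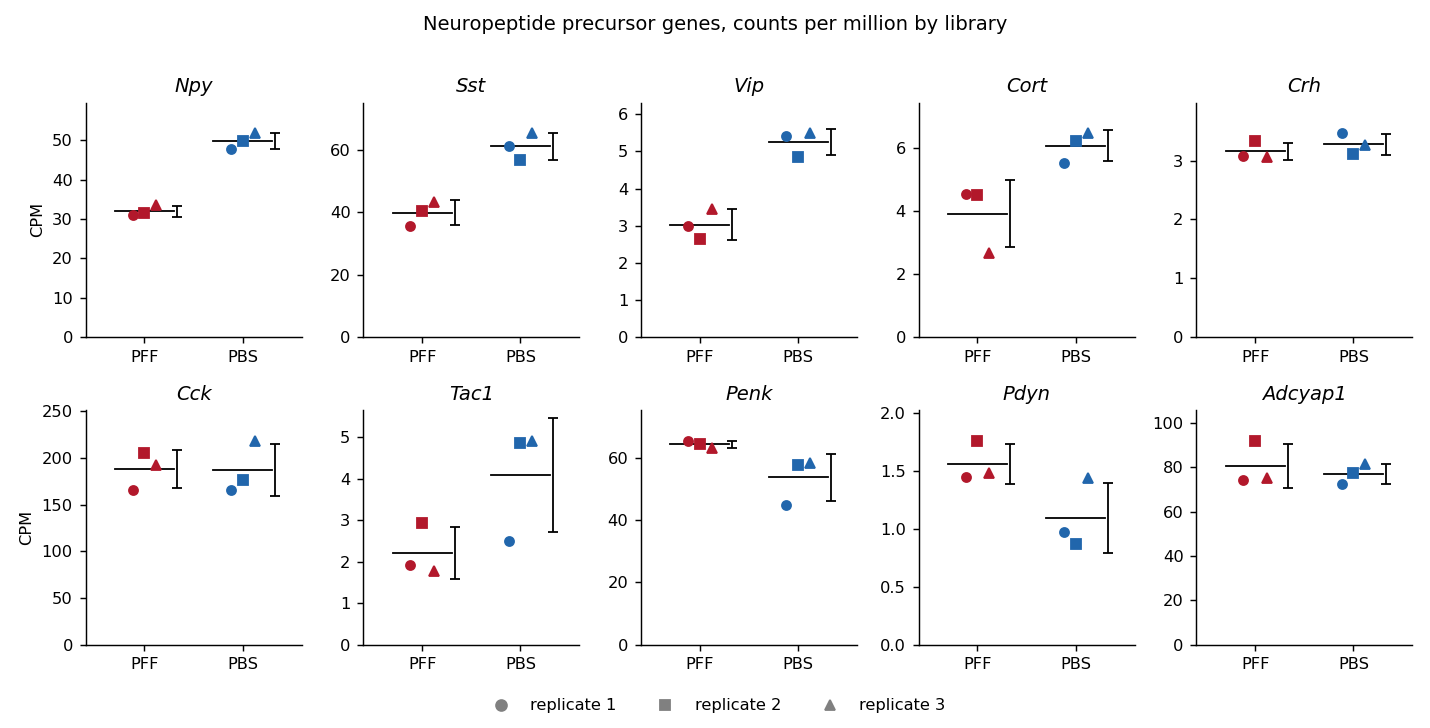
Level of each of the 10 precursor genes in CPM (vertical axes, each from 0) in the 3 PFF and 3 PBS libraries; symbols mark the replicate, lines the group mean and bars the SD. Npy, Sst and Vip lie lower in every PFF library than in any PBS library, with adjusted p-values of 0.000326, 0.00105 and 0.0251.

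Npy encodes neuropeptide Y, made in the cortex by subsets of interneurons and known to damp transmitter release. Its level was 30.9, 31.4 and 33.5 CPM in PFF libraries 1 to 3, and 47.9, 49.9 and 51.8 CPM in PBS libraries 1 to 3. All 3 PFF values lay below all PBS values. The log2 fold change was −0.64 ± 0.08 (SE, n = 3 per group; adjusted p = 0.000326, edgeR), a level 35.9% lower. It passed in all 14 alternatives, with log2 fold changes between −0.68 and −0.61. Npy lies on chromosome 6 from 49822710 to 49829507 on the plus strand (GENCODE vM21, GRCm38) and is protein-coding.

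Sst encodes somatostatin, the peptide of dendrite-targeting interneurons. It stood at 35.6, 40.5 and 43.4 CPM in PFF and 61.2, 56.8 and 65.2 CPM in PBS, with the highest PFF library below the lowest PBS library. It fell by 0.62 ± 0.09 on the log2 scale (adjusted p = 0.00105, edgeR), which is 34.8% lower, and passed in all 14 alternatives (−0.68 to −0.54). The gene lies on chromosome 16 from 23889573 to 23890958 on the minus strand. The sizes of the Sst and Npy falls differed by less than the standard error of either.

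Vip encodes vasoactive intestinal peptide, made by interneurons that mainly inhibit other interneurons. It was scarce, with 27 to 35 counts per library in PFF and 50 to 57 in PBS. Its level was 2.99, 2.64 and 3.46 CPM in PFF and 5.41, 4.85 and 5.49 CPM in PBS, again without overlap. It fell by 0.79 ± 0.19 on the log2 scale (adjusted p = 0.0251, edgeR), or 42.2%. The direction held in all 14 alternatives, and the call in 9. It did not pass in DESeq2 (adjusted p = 0.0677) or without PFF 1, PFF 2, PBS 1 or PBS 3 (0.0759, 0.126, 0.0886 and 0.0656). Vip lies on chromosome 10 from 5639218 to 5647617 on the plus strand.

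Cort encodes cortistatin, a relative of somatostatin that binds the same receptors and is made by overlapping interneurons. It had 4.53, 4.50 and 2.67 CPM in PFF and 5.52, 6.21 and 6.45 CPM in PBS, so that the groups did not overlap. PFF replicate 3 was the lowest of all 6 libraries. The log2 fold change was −0.64 ± 0.21, close in size to that of Sst, but it did not pass (adjusted p = 0.0911, edgeR). It was −0.37 (adjusted p = 0.272) with replicates 1 and 2 only and −0.43 without PFF 3.

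Tac1 encodes the precursor of substance P. Its values were 1.93, 2.94 and 1.78 CPM in PFF and 2.49, 4.85 and 4.91 CPM in PBS. PBS replicate 1 fell among the PFF libraries, so the groups overlapped. The log2 fold change of −0.89 ± 0.29 did not pass (adjusted p = 0.0904, edgeR), and it passed without PBS 1 (−1.14, adjusted p = 0.0306) and without a low-count filter (−0.90, 0.0387).

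Crh, which encodes corticotropin-releasing hormone, had nearly the same level in both groups. It stood at 3.08, 3.33 and 3.06 CPM in PFF and 3.46, 3.11 and 3.27 CPM in PBS. Its log2 fold change was −0.05 ± 0.20 (adjusted p = 0.918, edgeR), from 31 to 34 counts per library in PFF and 32 to 34 in PBS.

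Cck and Adcyap1, the members made widely by excitatory neurons, did not pass. Cck encodes cholecystokinin and had the highest level of the 10, at 165.6, 205.3 and 192.2 CPM in PFF and 165.1, 176.5 and 218.1 CPM in PBS. The groups covered almost the same range, with a log2 fold change of 0.01 ± 0.11 (adjusted p = 0.976, edgeR). Adcyap1 encodes PACAP, a peptide related to that of Vip that raises cAMP in its target cells. It had 74.1, 91.9 and 75.3 CPM in PFF and 72.4, 77.5 and 81.4 CPM in PBS, again overlapping (0.06 ± 0.09, adjusted p = 0.763). Without PFF 2 both values were below 0 (−0.061 for Cck and −0.046 for Adcyap1), and Cck was also below 0 without PFF 3, PBS 1 or PBS 2.

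The opioid precursors Penk and Pdyn stood higher in every PFF library than in any PBS library, as did 13.4% of all tested genes, and neither passed. For Pdyn this rested on the scaling alone, since PFF 1, PFF 3 and PBS 3 each held 15 counts. Penk encodes proenkephalin, at 65.3, 64.5 and 63.0 CPM in PFF and 44.8, 57.7 and 58.4 CPM in PBS. PBS replicate 1 was far below the other PBS libraries. The log2 fold change was 0.26 ± 0.10 (adjusted p = 0.147, edgeR), 0.14 without PBS 1 (0.457) and 0.34 with replicates 1 and 2 only, where it passed (0.0160). Of the exonic bases of Penk, 14.3% are shared with a non-coding transcript on the opposite strand, A830012C17Rik, and the counting tool's strand setting is not given in the sources used here. Pdyn, the dynorphin precursor, had 1.45, 1.76 and 1.48 CPM in PFF and 0.975, 0.874 and 1.44 CPM in PBS, from 15 to 18 counts per library in PFF and 9 to 15 in PBS (0.50 ± 0.32, adjusted p = 0.393).

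To compare levels between genes, CPM were divided by the kilobases of each gene's merged exons in GENCODE vM21. On this scale of CPM per kilobase the order of the members was the same in both groups. Cck led, at 143.8 ± 15.5 in PFF and 143.0 ± 21.4 in PBS (SD, n = 3 each). Npy followed, at 56.5 ± 2.41 in PFF and 88.1 ± 3.46 in PBS, and Sst, at 55.2 ± 5.49 in PFF and 84.7 ± 5.86 in PBS. Npy and Sst did not differ from each other beyond their spread in either group. Penk came next, at 39.3 ± 0.739 in PFF and 32.8 ± 4.68 in PBS, and then Adcyap1, at 21.3 ± 2.63 in PFF and 20.4 ± 1.19 in PBS. The other 5 were below 10 CPM per kilobase in both groups, in the order Cort, Crh, Vip, Tac1 and Pdyn, and Vip and Tac1 overlapped within their SDs in both groups, as did Tac1 and Pdyn in PFF.

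The falls of Npy, Sst and Vip were set beside genes of the interneurons that make them. Gad1 and Gad2, the GABA-synthesis genes shared by all cortical interneurons, summed to 467.8 ± 33.04 CPM in PFF and 458.1 ± 42.83 CPM in PBS (SD, n = 3 each). Log2 fold changes were −0.01 ± 0.09 for Gad1 (adjusted p = 0.966), 0.10 ± 0.09 for Gad2 (0.562) and 0.12 ± 0.11 for the vesicular GABA transporter gene Slc32a1 (0.578). Gad1 turned to 0.020 with scaling by library size only. Gad1, Gad2 and Slc32a1 were named after their values were seen.

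Per 100 counts of Gad1 and Gad2, Npy had 6.45, 6.38 and 7.79 counts in PFF and 11.1, 9.83 and 11.9 in PBS. Sst had 7.41, 8.22 and 10.1 in PFF and 14.2, 11.2 and 15.0 in PBS, and Vip 0.623, 0.536 and 0.804 in PFF and 1.255, 0.957 and 1.26 in PBS. All 3 ratios were lower in each PFF library than in any PBS library, and they do not depend on the scaling between libraries. The differences of the mean log2 ratios, PFF minus PBS, were −0.67 for Npy, −0.65 for Sst and −0.83 for Vip. In the exact two-sided permutation test each had p = 0.1 (0.1 after adjustment over the 3 ratios), the smallest that 3 libraries against 3 allow. This ratio was chosen after the values were seen, and taken only for the members already called lower. Their CPM did not overlap between the groups, while those of Gad1 and Gad2 did. The separation of the ratios and their p-values therefore add no support to the calls.

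**Figure D2:**
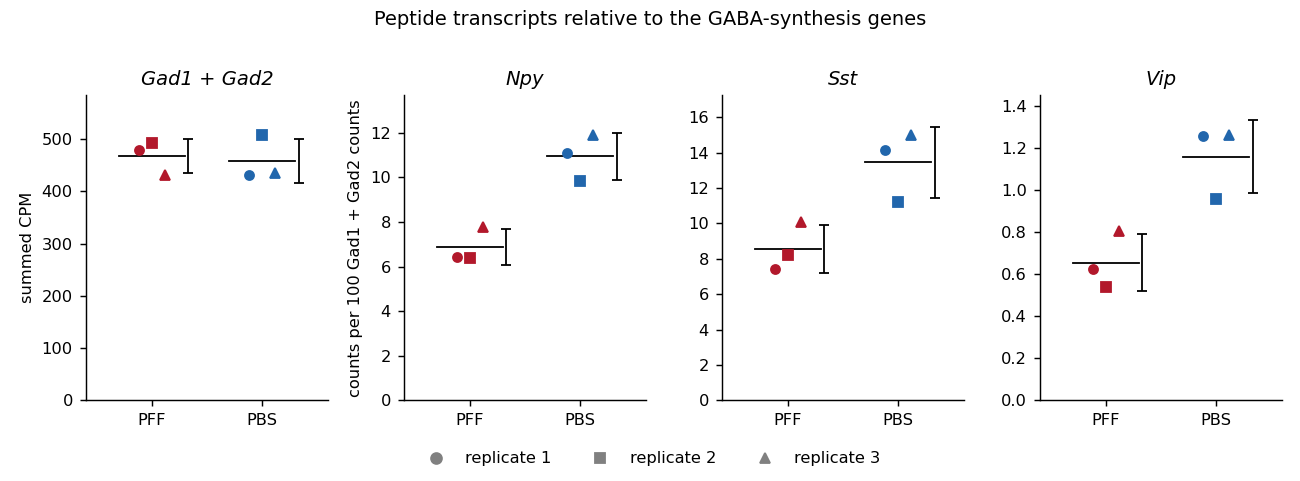
Summed level of Gad1 and Gad2 in CPM (left) and counts of Npy, Sst and Vip per 100 counts of Gad1 and Gad2, in the 3 PFF and 3 PBS libraries, with group means and SDs. The GABA-synthesis genes overlap between the groups (467.8 CPM in PFF and 458.1 CPM in PBS), and the 3 peptide ratios do not.

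Of the 24 interneuron identity genes, all tested, 1 rose and 1 fell, beside 3.98% and 2.60% of all tested genes. The median log2 fold change of the 24 was 0.05. Calb1, which encodes the calcium buffer calbindin found in interneurons and in some excitatory neurons, rose by 0.38 ± 0.08 (81.1 ± 4.68 CPM in PFF and 62.4 ± 4.84 CPM in PBS, adjusted p = 0.0146, edgeR). Sox6, a factor of interneurons from the medial ganglionic eminence that oligodendrocyte progenitors also express, fell by 0.41 ± 0.11 (48.5 ± 6.57 CPM in PFF and 64.5 ± 7.86 CPM in PBS, adjusted p = 0.0406). Calb1 did not pass without PFF 1, PFF 2 or PBS 1 (up to 0.0944). Sox6 did not pass without PFF 2, PFF 3, PBS 1 or PBS 2 (up to 0.207), nor with library-size scaling (0.0881) or the stricter low-count filter (0.0528). Reln, Nos1 and Erbb4 had values of 0.27 ± 0.10, 0.26 ± 0.10 and −0.37 ± 0.18 and did not pass (adjusted p = 0.155, 0.166 and 0.258).

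Receptor genes of the 10 peptides were mostly low, and those called were both somatostatin receptors. Of the 21 receptor genes, 14 were tested. The other 7 had at most 11 counts in any library. Of the 14, 2 rose and 0 fell, beside 3.98% and 2.60% of all tested genes. The log2 fold change was above 0 for 11 of the 14, with a median of 0.27. The number that rose was 1 without PFF 2, PBS 1 or PBS 3 and 4 with replicates 1 and 2 only. Among all genes, 312 of 14069, 354 of 14067, 455 of 14076 and 1225 of 13953 rose in those settings, in this order.

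Sstr2 encodes a G-protein-coupled somatostatin receptor that lowers cAMP. It stood at 10.8, 10.6 and 10.3 CPM in PFF and 7.36, 5.92 and 5.87 CPM in PBS, with no overlap. It rose by 0.73 ± 0.15 on the log2 scale (adjusted p = 0.00811, edgeR) and passed in all 14 alternatives (0.67 to 0.84). Sstr1 encodes another receptor for somatostatin and cortistatin and was the more abundant in CPM. It had 28.1, 33.9 and 31.9 CPM in PFF and 19.5, 26.5 and 21.9 CPM in PBS, and rose by 0.46 ± 0.12 (adjusted p = 0.0321). Sstr1 did not pass without PFF 2, PBS 1 or PBS 3 (0.177, 0.163 and 0.0757).

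The remaining somatostatin receptors pointed the same way without passing, with 0.30 ± 0.13 for Sstr3 (adjusted p = 0.213) and 0.77 ± 0.33 for Sstr4 (0.200). Sstr4 rested on few counts and passed with replicates 1 and 2 only (1.29, adjusted p = 0.0147). Of the 4 tested somatostatin receptor genes 2 were thus called higher in the libraries in which Sst was called lower, beside 3.98% of all tested genes. A log2 fold change above 0 was not particular to them, since 11 of the 14 tested receptor genes had one.

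**Figure D3:**
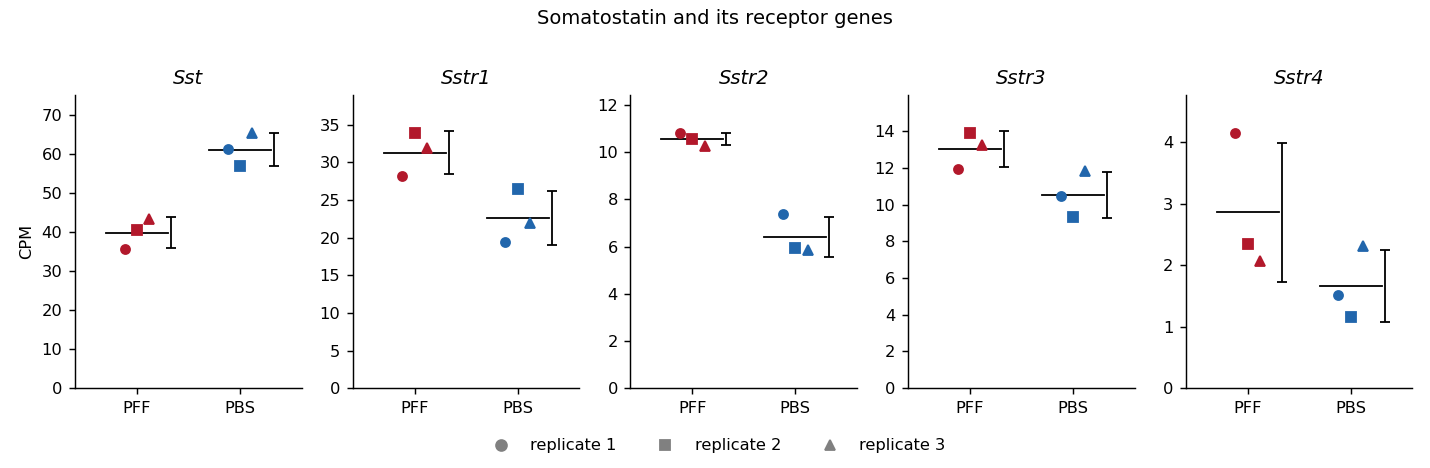
Levels in CPM of Sst and of the 4 tested somatostatin receptor genes in the 3 PFF and 3 PBS libraries, with group means and SDs. Sst is lower in PFF (log2 fold change −0.62), while Sstr1 and Sstr2 are higher (0.46 and 0.73).

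Receptors of the other peptides did not pass. Crhr1, the main receptor of Crh, had a log2 fold change of 0.34 ± 0.10 (53.4 ± 4.93 CPM in PFF and 42.0 ± 5.24 CPM in PBS, adjusted p = 0.0658), and it passed without PFF 3 (0.42, 0.0113), without PBS 2 (0.45, 0.0312), with replicates 1 and 2 only (0.00595) and without a low-count filter (0.0304). Npy1r, a receptor of neuropeptide Y, stood at 30.3, 32.9 and 29.6 CPM in PFF and 27.8, 25.5 and 25.5 CPM in PBS. Its 0.23 ± 0.09 did not pass (adjusted p = 0.161). Tacr3, a tachykinin receptor gene, had 0.73 ± 0.31 at a low level (2.28 CPM in PFF and 1.36 CPM in PBS, adjusted p = 0.197).

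Adcyap1r1, the PACAP receptor gene, was the most abundant receptor of the list in CPM, at 125.4 ± 13.7 in PFF and 141.1 ± 18.6 in PBS (−0.17 ± 0.10, adjusted p = 0.357). Vipr1, Vipr2, Cckbr, Oprd1, Tacr1 and Crhr2 had adjusted p-values from 0.463 to 0.992. Adcyap1r1 and these 6, with Sstr3 and Sstr4, were named after their values were seen.

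**Figure D4:**
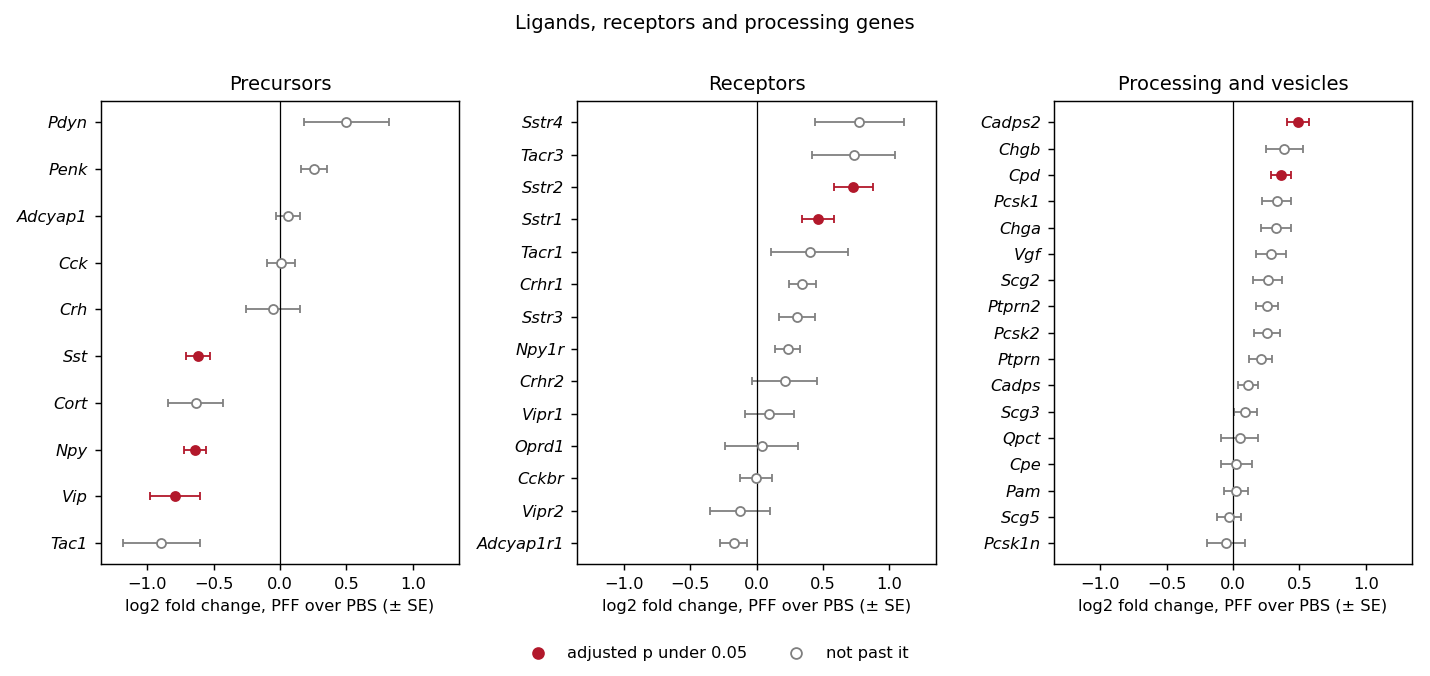
Log2 fold changes, PFF over PBS, with standard errors (horizontal axes) for the 10 precursor genes, the 14 tested receptor genes and the 17 processing and dense-core vesicle genes; filled red points have an adjusted p under 0.05. The called precursors lie left of 0 (Npy −0.64, Sst −0.62, Vip −0.79) and the called receptor and vesicle genes right of it (0.36 to 0.73).

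Genes that process peptide precursors or build dense-core vesicles were all tested, and none fell. Of the 17, 2 rose, beside 3.98% of all tested genes. The median log2 fold change was 0.26. It was 0.21 for the pan-neuronal genes, 0.17 for the excitatory identity genes and 0.05 for the interneuron identity genes. Cadps2, a factor that primes dense-core vesicles for release, had 180.1, 195.0 and 176.3 CPM in PFF and 130.2, 119.3 and 143.1 CPM in PBS. It rose by 0.49 ± 0.08 (adjusted p = 0.00241, edgeR) and passed in all 14 alternatives. Cpd, which encodes a carboxypeptidase that trims precursors in the secretory pathway of most cells, rose by 0.36 ± 0.07 (115.4 ± 4.29 CPM in PFF and 89.8 ± 5.18 CPM in PBS, adjusted p = 0.00972). Cpd did not pass without PFF 2 or PBS 1 (0.0672 and 0.0724).

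The prohormone convertase gene Pcsk1 (0.33 ± 0.11), the vesicle gene Ptprn2 (0.26 ± 0.08) and the granin gene Chga (0.32 ± 0.11) did not pass (adjusted p = 0.0981, 0.0860 and 0.111). With replicates 1 and 2 only, 9 genes of this list rose, beside 1225 of all 13953 genes tested there. Among the 9 was Pcsk1 (0.52, adjusted p = 0.000199). The list had 5 that rose without PFF 3 (871 of all 14070 genes) and 4 without PBS 3 (455 of 14076). It had 1 without PFF 2 (312 of 14069) or without PBS 1 (354 of 14067).

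Among 10 genes that bind or degrade peptides, 1 rose and 0 fell, beside 3.98% and 2.60% of all tested genes. The median log2 fold change of the 10 was −0.01. Anpep, an aminopeptidase also known as a surface marker of myeloid cells, had 6.84, 5.58 and 6.43 CPM in PFF and 2.38, 0.971 and 0.962 CPM in PBS. It rose by 2.15 ± 0.28 (adjusted p = 0.000338, edgeR), in libraries in which 14 of 15 tested microglia markers rose too. Crhbp, the binding protein of Crh and a gene of Sst interneurons, had 2.60, 3.13 and 4.25 CPM in PFF and 4.98, 5.44 and 5.68 CPM in PBS. Its −0.69 ± 0.21 did not pass (adjusted p = 0.0647), and it passed without PFF 3 (−0.90, 0.0141), with replicates 1 and 2 only (−0.86, 0.0205) and without a low-count filter (0.0427). Ece2 and Thop1, which encode peptidases, had −0.33 ± 0.11 and 0.24 ± 0.09 (adjusted p = 0.0916 and 0.134).

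Of 36 further neuropeptide precursor genes, 10 were tested and 26 had at most 16 counts in any library. None of the 10 passed in edgeR, DESeq2 or limma, and 4 had an unadjusted p under 0.05, beside 21.2% of all tested genes. The log2 fold change was below 0 for 9 of the 10, with a median of −0.29, where 6972 of the 13919 genes were below 0. Calca, the calcitonin gene-related peptide gene, had −0.84 ± 0.25 (1.46 CPM in PFF and 2.64 CPM in PBS, adjusted p = 0.0621). Nppc, the C-type natriuretic peptide gene, had −0.34 ± 0.11 (17.6 CPM in PFF and 22.2 CPM in PBS, 0.0957) and Nmb, the neuromedin B gene, −0.70 ± 0.27 (0.160). Pnoc, the nociceptin precursor and the most abundant of the 10 in CPM, had −0.28 ± 0.13 (32.8 ± 4.98 CPM in PFF and 39.7 ± 6.21 CPM in PBS, adjusted p = 0.231) and was named after its values were seen.

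Of 21 genes that neurons induce with activity and cAMP, 11 rose and 0 fell, beside 3.98% and 2.60% of all tested genes. The median change of the 21 was 0.50 on the log2 scale. The immediate early genes Arc, Egr1, Egr2, Egr3, Fos, Junb and Nr4a1 and the pentraxin gene Nptx2 rose by 0.55 to 1.01. Fos had 77.9 ± 8.11 CPM in PFF and 51.1 ± 5.81 CPM in PBS. The microglia markers stood at a summed 548.5 to 675.4 CPM in PFF and 171.1 to 284.9 CPM in PBS in the same libraries, and immune cells express several of these genes too; the part of those cells was not tested. The number that rose was 17 without PFF 3, 18 with replicates 1 and 2 only, and 8 without PFF 2, PBS 1 or PBS 3. Among all genes, 871 of 14070, 1225 of 13953, 312 of 14069, 354 of 14067 and 455 of 14076 rose in those settings, in this order.

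Of 8 pan-neuronal genes Syt1, a calcium sensor of transmitter release, rose by 0.33 ± 0.09 (adjusted p = 0.0489, edgeR) and none fell. Over all tested genes 3.98% rose and 2.60% fell. With 1 library left out, Syt1 passed only without PFF 3 (otherwise up to 0.274), and it did not pass with DESeq2 size factors (0.0535) or the stricter low-count filter (0.0556). Tubb3, Nefl and Rbfox3 had 0.29 ± 0.09, 0.25 ± 0.08 and 0.21 ± 0.07 without passing. Of 11 excitatory identity genes 2 rose and 0 fell, beside the same 3.98% and 2.60% of all tested genes. The 2 were the glutamate transporter gene Slc17a6 (0.56 ± 0.09, adjusted p = 0.00246) and the layer factor gene Tbr1 (0.39 ± 0.10, 0.0287). With 1 library left out, Tbr1 passed only without PFF 3 (otherwise up to 0.176). Camk2a, a kinase gene of excitatory neurons, had −0.26 ± 0.09 and the glutamate transporter gene Slc17a7 0.17 ± 0.08, and neither passed (adjusted p = 0.0966 and 0.237). Camk2a was lower in every PFF library than in any PBS library, and it passed as lower in DESeq2 (0.0393), with replicates 1 and 2 only (0.0109) and without PFF 3 (0.0211).

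**Figure D5:**
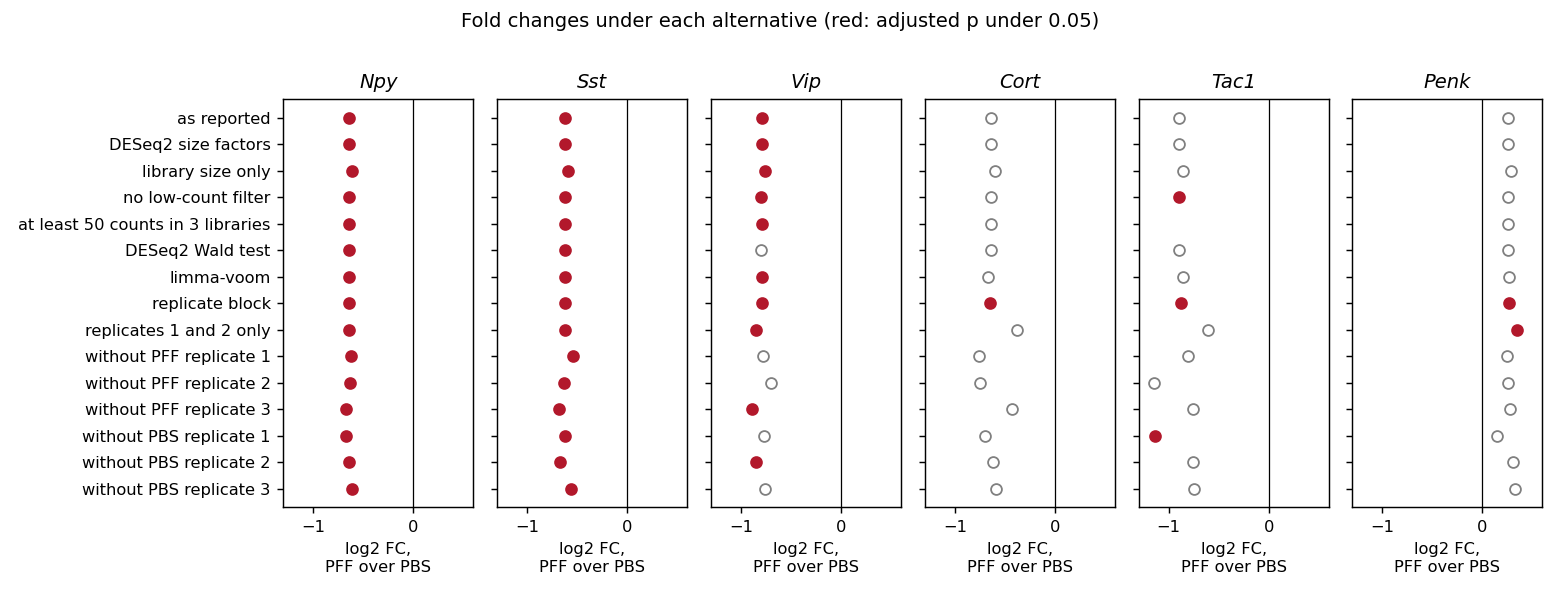
Log2 fold changes of 6 precursor genes as reported and under each of the 14 alternatives (rows); filled red points have an adjusted p under 0.05, and a missing point means that the gene was not tested there. Npy and Sst are called in every row and Vip in 9 of 14 alternatives, and the other 3 in at most 3.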

How the data were processed

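Libraries that keep strand were made from the RNA of 3 PFF and 3 PBS samples, per the labels' protocols. The deposited table holds the authors' estimated counts for each gene before any scaling, and 8.69% of its values were not whole. The submitters' processing notes name Trim Galore 0.6.6, STAR 2.7.9a, DESeq2 1.38.3 and mm10. Which tool counted, with which strand setting and annotation, is not given in the sources used here. Columns were matched to samples by name.

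After rounding, edgeR 4.0.16 in R 4.3.3 was used. The default of filterByExpr left out 10492 genes. The remaining 13919 were TMM-normalised and compared between the groups by the quasi-likelihood test (robust, two-sided, no covariates), and p-values were adjusted by Benjamini-Hochberg over all of them (threshold 0.05). The SE is the absolute log2 fold change divided by the square root of F. DESeq2 1.42.0 and limma 3.58.1 (voom) served as alternatives.

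The members, gene lists and tests were chosen with earlier results of these data known. Named were all members and, of each list, genes past the threshold and the next 3 by unadjusted p, at most 8; 1 gene that this rule names is not reported here. Other names are said to have been chosen after their values were seen. For non-neuronal cell types only counts and sums are given.

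On simulated counts for the 13919 genes the test found 12 of 50 genes changed 1.25-fold. It found 37 of 50 at 1.5-fold, 47 at 2-fold and 50 at 4-fold, and called 18 unchanged genes. Library totals were 9224974 to 10742383.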

Additional observations from a re-analysis of the deposited data

How the results depend on the processing

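Of the members, Npy and Sst passed in every alternative and Vip in 9 of 14, while Cck, Crh, Pdyn and Adcyap1 passed in none of those in which they were tested. Crh, Tac1 and Pdyn were not tested with at least 50 counts in 3 libraries. The number of changed members was 6 with a replicate block and 2 to 3 with 1 library left out, and 2 in DESeq2. It was 4 without a low-count filter, where Tac1 was added, and 4 with replicates 1 and 2 only, where Penk was added as higher. Without PBS 1 the 3 were Npy, Sst and Tac1. Over all genes, 916 changed (554 higher in PFF, 362 lower). Without a low-count filter 1132 of 18964 genes changed, and in DESeq2 824 of 13919. The numbers were 1997 (1043 and 954) with the replicate block, 2394 (1225 and 1169) with replicates 1 and 2 only, and 412 to 1858 (312 to 871 and 100 to 987) with 1 library left out. The lowest came without PFF 2 and the highest without PFF 3. The cause was not tested.

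The replicate numbers gave no pairing in the labels. Deviations from the group means correlated by 0.092, 0.109 and 0.202 between libraries of the same number. Between libraries of unlike number the correlations ran from −0.207 (PFF 1 with PBS 3) to 0.128 (PFF 1 with PBS 2), the only positive one. Whether libraries of the same number share a batch or culture was not tested, and the block is given here only. Under the block Tac1 (−0.87, adjusted p = 0.0233), Cort (−0.64, 0.0413) and Penk (0.27, 0.0404) passed, and so did the receptor gene Crhr1 (0.00711) and, as lower, Camk2a (0.0216). Among all 13919 genes the block called 1043 higher and 954 lower (554 and 362 without it). It called 10 processing genes higher (2 without it). Lower were 3 other precursors (0 without it), Pnoc (0.0237), Nppc (0.0319) and Calca (0.0458). Of the peptide-binding or degrading genes it called 2 higher and 2 lower (1 and 0 without it). It also called 17 activity genes higher (11 without it) and 5 pan-neuronal genes higher (1 without it).

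Values near 0 changed sign. Cckbr was −0.00 in the fit as reported, 0.026 with library-size scaling and 0.0049 in limma, and Gad1 was 0.0201 with library-size scaling. With 1 library left out, ranges were −0.0749 to 0.14 for Cck, −0.0456 to 0.11 for Adcyap1, −0.10 to 0.0649 for Cckbr, −0.28 to 0.0267 for Vipr2, −0.10 to 0.21 for Vipr1, −0.20 to 0.28 for Oprd1, −0.0572 to 0.0779 for Gad1 and −0.0009 to 0.22 for Slc32a1. Without the most abundant marker, the log2 ratio of summed levels became 0.17 for excitatory identity genes (without Camk2a) and −0.27 for the oligodendrocyte lineage (without Mbp). Vip, Tac1, Crh, Cort and Pdyn rest on at most 67 counts per library, which limits their precision.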

Other observations

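The makeup of the peptide transcript pool can be given as each gene's share of the summed counts of the 10 precursors, which were 3780 to 5159 counts per library. Npy made up 7.67 ± 0.579% in PFF and 11.2 ± 0.660% in PBS (SD, n = 3 each), and Sst 9.53 ± 0.705% in PFF and 13.7 ± 1.10% in PBS. Vip made up 0.729 ± 0.124% in PFF and 1.18 ± 0.125% in PBS, Adcyap1 19.2 ± 1.27% in PFF and 17.3 ± 0.745% in PBS, and Cck 44.8 ± 1.62% in PFF and 41.5 ± 2.09% in PBS. These shares sum to 100% within a library, so a lower share of one gene raises the others, and they were not tested.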
